A study of Mus musculus with 6 samples.

Results

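The Bcl2 family of apoptosis regulators was followed by 10 genes in RNA-seq of mouse samples labelled as primary T cells. The genes were taken by symbol from the deposited count table, which lists 54532 genes. They were Bcl2, Bcl2l1, Mcl1, Bcl2a1a, Bcl2a1b, Bcl2a1d, Bcl2l11, Bbc3, Bax and Bak1. All 10 were found, and all 10 were among the 14883 genes that passed the filter on low counts and were tested. The study asked how macrophages whose C1q program is blocked affect CD8T cells, apoptosis included.

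Both groups held T cells that were taken from mouse spleen with a CD8T cell kit, stimulated through CD3 and CD28 on beads, and then kept for 24 hr with thioglycolate-induced peritoneal macrophages that had received 10 ng/mL IFN-γ for 12 hr, as the methods describe. In the DB2313 group those cells had received DB2313, which blocks the factor Spi1 (PU.1) and for which the methods give 14 nM, and in the control group they had not. GEO's labels divide the 3 control and 3 DB2313 samples in the same way, but call the cocultured cells DC. Mouse strain and age are not given for these cells in the sources used here, and nothing says whether the 3 samples of a group came from separate animals or cultures, so p-values measure the spread between these samples, which may be technical. Between 16611975 and 18596217 reads were counted on genes in each library.

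The family sets whether a cell keeps its mitochondrial outer membrane intact. Antiapoptotic members (Bcl2, Bcl-xL encoded by Bcl2l1, Mcl1 and A1 encoded by the Bcl2a1 genes) hold the pore-forming effectors Bax and Bak in check, and BH3-only proteins such as Bim (Bcl2l11) and Puma (Bbc3) release that restraint, after which cytochrome c leaves the mitochondria and caspases are activated. In T cells, cytokine receptors are known to sustain Bcl2 and Mcl1, antigen receptor signalling induces Bcl2l1 and Bcl2a1, and Bim removes activated cells when stimulation ends.

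The Bcl2a1 genes carried the largest difference in the family, and Bax the largest rise. The Bcl2a1 genes were lower in the DB2313 group, from 1.73-fold for Bcl2a1d to 2.001-fold for Bcl2a1a, while no other member fell by more than the 1.30-fold of Bak1 or rose by more than the 1.25-fold of Bax. Bcl2, Bbc3 and Bax rose, and Bcl2l1, Mcl1, Bcl2a1a, Bcl2a1b, Bcl2a1d, Bcl2l11 and Bak1 fell, so that antiapoptotic and proapoptotic genes stood on either side. All 10 members passed an adjusted p of 0.05 in edgeR's quasi-likelihood test, against 45.4% of all tested genes. The 3 higher members compare with 20.8% of all tested genes in that direction, and the 7 lower ones with 24.6%. Since small changes pass more easily in well-counted genes, the share was also taken over the 5290 tested genes whose mean level reached that of the least counted member, 43.6 CPM for Bcl2a1b. It was 63.3% in either direction, 28.0% for higher and 35.3% for lower genes. In all 10 members every library of 1 group lay above every library of the other, as was so for 53.1% of all tested genes. The median log2 fold change was -0.19 over the members and 0.019 over all tested genes. The Bcl2a1 genes are near-identical copies, and do not count as independent in this median or in the numbers of members given above. CPM here are read counts divided by the library size after TMM scaling, which takes the bulk of the genes as unmoved.

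**Figure D1:**
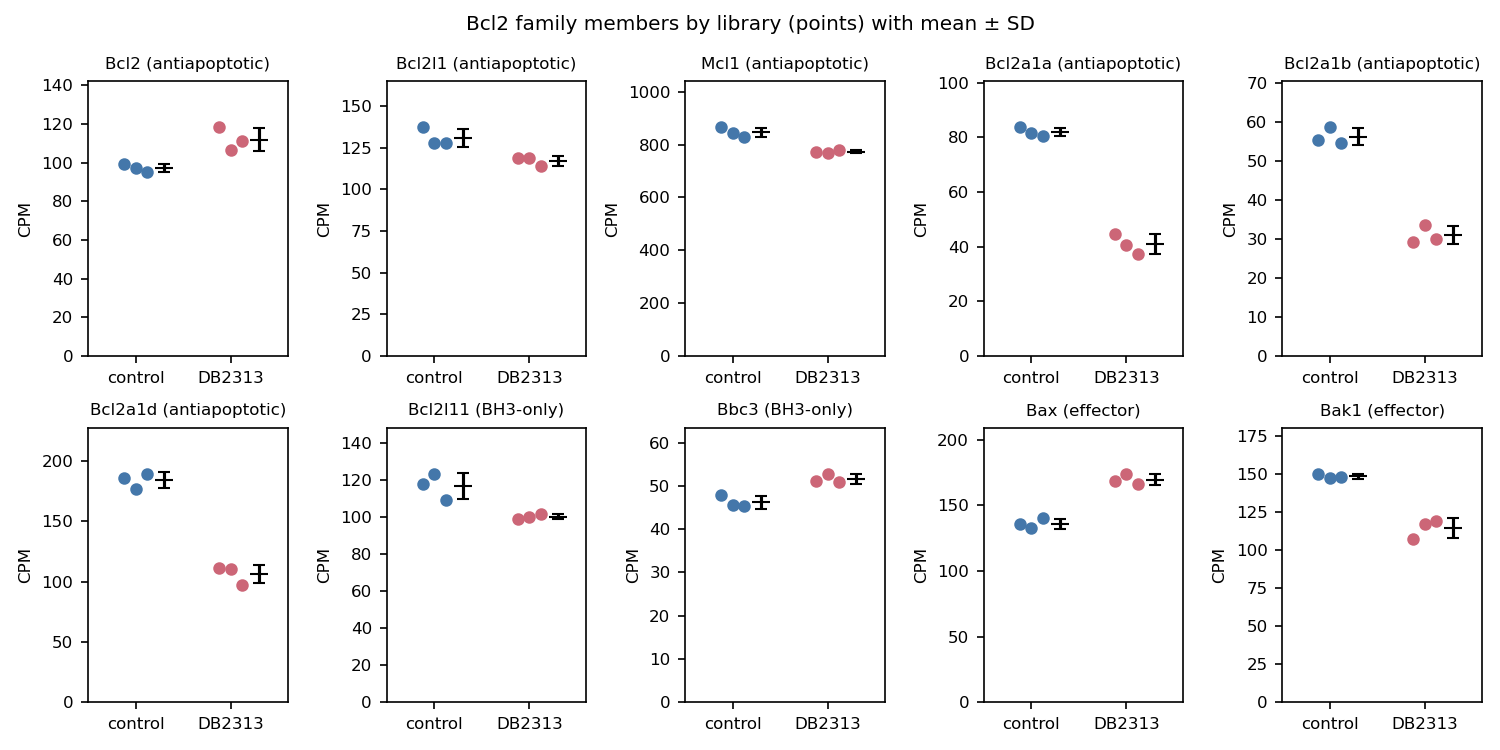
CPM (vertical axis, from 0) of each member in the 3 control and 3 DB2313 libraries, with points for libraries and bars for mean ± SD. The Bcl2a1 panels show the widest gaps, and no panel has overlapping groups.

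The Bcl2a1 genes encode A1, an inducible antiapoptotic protein of haematopoietic cells that is a known NF-kappa-B target in lymphocytes and myeloid cells. The mouse has several near-identical copies on chromosome 9, and the copies decide how far their counts can be told apart. The coding sequences of Bcl2a1a, Bcl2a1b and Bcl2a1d in GENCODE are 519 bases long, and differ at 11 bases between Bcl2a1a and Bcl2a1b, at 7 between Bcl2a1a and Bcl2a1d and at 6 between Bcl2a1b and Bcl2a1d, an identity of 97.9%, 98.7% and 98.8%. The first 100 coding bases hold 7 positions at which the copies differ, and are printed because no other window of 100 coding bases holds more. Capitals mark these positions. Past position 22 the stretch is identical in Bcl2a1a and Bcl2a1d, so a read that lies wholly in that part cannot be assigned between them.
Bcl2a1a: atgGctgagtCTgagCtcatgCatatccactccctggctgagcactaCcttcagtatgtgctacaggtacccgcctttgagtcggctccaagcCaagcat
Bcl2a1b: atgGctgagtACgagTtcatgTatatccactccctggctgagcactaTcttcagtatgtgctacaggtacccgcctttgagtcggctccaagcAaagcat
Bcl2a1d: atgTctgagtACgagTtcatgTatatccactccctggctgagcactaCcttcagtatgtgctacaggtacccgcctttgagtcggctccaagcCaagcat
Of the windows of 150 bases in each transcript, 71.8% in Bcl2a1a, 85.8% in Bcl2a1b and 69.7% in Bcl2a1d were found in neither of the other two, and of the windows of 50 bases 32.3%, 42.4% and 20.5%. The read length is not given in the sources used here, nor is it said whether reads that match several copies were dropped, so both the division of counts among the copies and the level of their sum are uncertain.

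Bcl2a1a (ENSMUSG00000102037, chromosome 9 of GRCm38 from 88956900 to 88962419, plus strand) was at 83.7, 81.4 and 80.6 CPM in the control libraries and at 44.7, 40.7 and 37.3 CPM in the DB2313 libraries. The highest DB2313 library lay far below the lowest control library. On the log2 scale it changed by -1.001 (standard error 0.061, adjusted p = 1.91e-12), which made it the only member past an absolute log2 fold change of 1. Every adjusted p here is from the quasi-likelihood test of edgeR, after Benjamini-Hochberg correction over all tested genes. Among all tested genes 5.30% passed both thresholds downward and 1.37% upward, where no member did. The value lies at the threshold itself, and leaving out 1 library at a time moved it between -1.07 and -0.94.

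Bcl2a1d (ENSMUSG00000099974, chromosome 9 from 88723285 to 88731914, minus strand) was the most counted copy, with 186, 177 and 189 CPM in the control group and 111, 111 and 97.5 CPM with DB2313. The groups stood apart by more than their spread, and the change was -0.79 on the log2 scale (standard error 0.046, adjusted p = 8.82e-13). Bcl2a1b (ENSMUSG00000089929, chromosome 9 from 89199209 to 89207827, plus strand) was the least counted, with 55.3, 58.7 and 54.7 CPM in the control group and 29.3, 33.6 and 29.9 CPM with DB2313. It changed by -0.86 on the log2 scale (standard error 0.067, adjusted p = 1.55e-10). Bcl2a1b shares its locus with Gm29094 on the same strand, to which at most 3 reads were assigned in a library, and Bcl2a1d with Gm10634 on the opposite strand, with at most 10. A further copy in the annotation, Bcl2a1c, had at most 2 counts in a library and was not tested.

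With the 3 copies summed into 1 row and the whole table fitted again, Bcl2a1 went from 322 ± 4.45 to 178 ± 11.7 CPM (SD, n = 3 each), a log2 fold change of -0.85 (standard error 0.041, adjusted p = 2.21e-14). By fold change, 7.17% of the tested genes had a larger fall. Most of the sum came from Bcl2a1d in both groups. Bcl2a1d took 57.1% ± 1.25 of the summed counts in the control group and 59.7% ± 0.430 with DB2313, Bcl2a1a 25.4% ± 0.516 and 22.9% ± 1.12, and Bcl2a1b 17.5% ± 0.907 and 17.4% ± 1.33 (SD, n = 3 each).

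DB2313 was given to the cocultured cells. As a description of sequence alone, the promoters of the members were searched for the core of the PU.1 motif, GAGGAA, on both strands. RefSeq promoter windows of GRCm38.p6, from 250 bases before to 50 bases after each annotated start, were matched for all 10 members, with 15 windows in all. The core was found in 28.3% of the 32851 windows of all genes and in 5 of the 15, those of Bcl2a1a (3 matches), Bcl2a1b (4), Bcl2a1d (2), Bcl2 (1) and Bak1 (1). The 3 Bcl2a1 windows are near-identical and do not count as independent matches. A stretch upstream of the annotated transcripts is printed because it holds the matches that the copies share, and capitals mark the core on either strand. It lies at chr9:88956794-88956855 on the plus strand for Bcl2a1a, chr9:89199103-89199164 on the plus strand for Bcl2a1b and chr9:88731915-88731970 on the minus strand for Bcl2a1d.
Bcl2a1a: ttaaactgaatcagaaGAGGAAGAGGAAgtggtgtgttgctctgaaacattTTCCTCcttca
Bcl2a1b: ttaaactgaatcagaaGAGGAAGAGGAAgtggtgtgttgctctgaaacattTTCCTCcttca
Bcl2a1d: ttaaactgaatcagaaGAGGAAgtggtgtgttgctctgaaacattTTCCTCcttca
The stretch was identical in Bcl2a1a and Bcl2a1b, where the core stands in tandem, and Bcl2a1d lacked 1 of the tandem copies. Over the parts of the windows that align (256 to 300 positions) the identity was 99.2% between Bcl2a1a and Bcl2a1b, 96.0% between Bcl2a1a and Bcl2a1d and 96.5% between Bcl2a1b and Bcl2a1d. The pattern TGANTCA, a loose form of the AP-1 motif that allows any base at N, was found in 7.81% of all windows. It had 1 match in each of the 3 windows, just before the first PU.1 core and not overlapping it. The matched letters there are tgaatca. A kappa-B consensus was found in 4.79% of all windows and in 1 window each of Mcl1, Bcl2l1, Bcl2l11 and Bbc3. The FOXO motif GTAAACA, at 3.65% of all windows, was found in 1 window each of Bcl2l11 and Bbc3, and the STAT motif TTCNNNGAA, at 8.30%, in none of the 15. Bcl2l1 and Bbc3 have 3 windows each and Bcl2l11 has 2. These are matches of letters, and binding was not measured.

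Mcl1, a short-lived protein that T cells and myeloid cells need at several stages (ENSMUSG00000038612, chromosome 3 from 95658788 to 95663176, plus strand), was the member with the most counts. It was at 866, 844 and 829 CPM in the control group and at 772, 767 and 778 CPM with DB2313. The groups did not overlap, but the difference was small, with a log2 fold change of -0.13 (standard error 0.031, adjusted p = 0.00106). The call was lost with library size scaling (log2 fold change -0.037, adjusted p = 0.317) and upper quartile scaling (-0.068, adjusted p = 0.0758).

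Bcl2l1 encodes Bcl-xL, which antigen receptor and CD28 signals are known to induce (ENSMUSG00000007659, chromosome 2 from 152780668 to 152831728, minus strand). It was at 137, 128 and 128 CPM in the control group and at 119, 119 and 114 CPM with DB2313, a log2 fold change of -0.16 (standard error 0.041, adjusted p = 0.00231). With library size scaling this was -0.067, and no longer past the threshold (adjusted p = 0.179).

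Bcl2, the founding member that survival cytokines maintain in lymphocytes (ENSMUSG00000057329, chromosome 1 from 106538178 to 106714274, minus strand), was the only antiapoptotic member to rise. It was at 99.3, 97.2 and 95.1 CPM in the control group and at 118, 106 and 111 CPM with DB2313, a log2 fold change of 0.20 (standard error 0.044, adjusted p = 0.000585). Its 3 overlapping genes, D630008O14Rik, Gm37053 and Mir3473f, had at most 6 counts in a library.

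Of the BH3-only genes, Bcl2l11 fell and Bbc3 rose, both by little. Bcl2l11 (ENSMUSG00000027381, chromosome 2 from 128126038 to 128162547, plus strand), which encodes Bim, was at 118, 123 and 109 CPM in the control group and at 98.9, 99.9 and 102 CPM with DB2313. The control libraries were the more spread, but all lay above the DB2313 libraries, with a log2 fold change of -0.22 (standard error 0.045, adjusted p = 0.000279). Bbc3 (ENSMUSG00000002083, chromosome 7 from 16308393 to 16318205, plus strand), which encodes the p53 target Puma, was at 48.0, 45.6 and 45.3 CPM in the control group and at 51.1, 52.8 and 50.9 CPM with DB2313. Its log2 fold change of 0.16 (standard error 0.059, adjusted p = 0.0333) was the weakest call in the family. It was not past the threshold with DESeq2 (adjusted p = 0.0886), with no filter on low counts (0.0576), or in edgeR fits that left out replicate 2 (0.0951) or 3 (0.0916) of the control group or replicate 2 (0.0904) of the DB2313 group, with log2 fold changes of 0.14 to 0.16 in these fits.

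The effectors Bax and Bak1, whose proteins form the pore in the outer membrane, went in opposite directions. Bax (ENSMUSG00000003873, chromosome 7 from 45461697 to 45466898, minus strand) was at 136, 133 and 140 CPM in the control group and at 169, 174 and 166 CPM with DB2313, a log2 fold change of 0.32 (standard error 0.038, adjusted p = 2.25e-07). Bak1 (ENSMUSG00000057789, chromosome 17 from 27019810 to 27029009, minus strand) was at 150.3, 148 and 148 CPM in the control group and at 107, 117 and 119 CPM with DB2313, a log2 fold change of -0.38 (standard error 0.042, adjusted p = 7.43e-08). Bak1 overlaps Ggnbp1 on the opposite strand, which had 40 to 52 counts in a library against at least 1979 for Bak1, and Bax overlaps Gm45808, with at most 2 counts.

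Levels of different genes were compared per length, as RPKM (the CPM divided by the gene length of the table in kilobases). In the control group the summed Bcl2a1 copies were the most abundant member, at 382 ± 5.05 RPKM, above Mcl1 at 248 ± 5.39. With DB2313 the order of these turned, with Mcl1 at 226 ± 1.67 and Bcl2a1 at 211 ± 13.9 RPKM (SD, n = 3 each), and the ranges of the libraries did not overlap in either group. This order, like the shares of Bcl2a1 that follow, rests on the level of the sum and so on how reads that match several copies were counted. Bax at 86.4 ± 2.40 and 108 ± 2.57 RPKM and Bak1 at 61.7 ± 0.606 and 47.6 ± 2.67 RPKM followed in both groups. Bcl2l1, Bbc3, Bcl2l11 and Bcl2 came last, between 10.6 and 28.5 RPKM in group means, and in the DB2313 group Bcl2l1 did not differ from Bbc3, nor Bcl2l11 from Bcl2, beyond the range of the libraries.

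Within the summed RPKM of the antiapoptotic members, Bcl2a1 took 56.7%, 56.9% and 57.8% in the control libraries and 45.3%, 45.6% and 42.4% in the DB2313 libraries. Mcl1 took 37.3%, 37.3% and 36.4% and then 46.7%, 46.6% and 49.5%. Bcl2l1 and Bcl2 together made up the small remainder, with Bcl2 at 1.59% ± 0.0236 and 2.57% ± 0.140 (SD, n = 3 each). Among Bax, Bak1, Bcl2l11 and Bbc3, the share of Bax was 46.8% ± 1.01 in the control group and 56.1% ± 0.953 with DB2313, and that of Bak1 33.5% ± 0.272 and 24.8% ± 1.06 (SD, n = 3 each). Such shares within a library do not depend on how libraries are scaled.

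**Figure D2:**
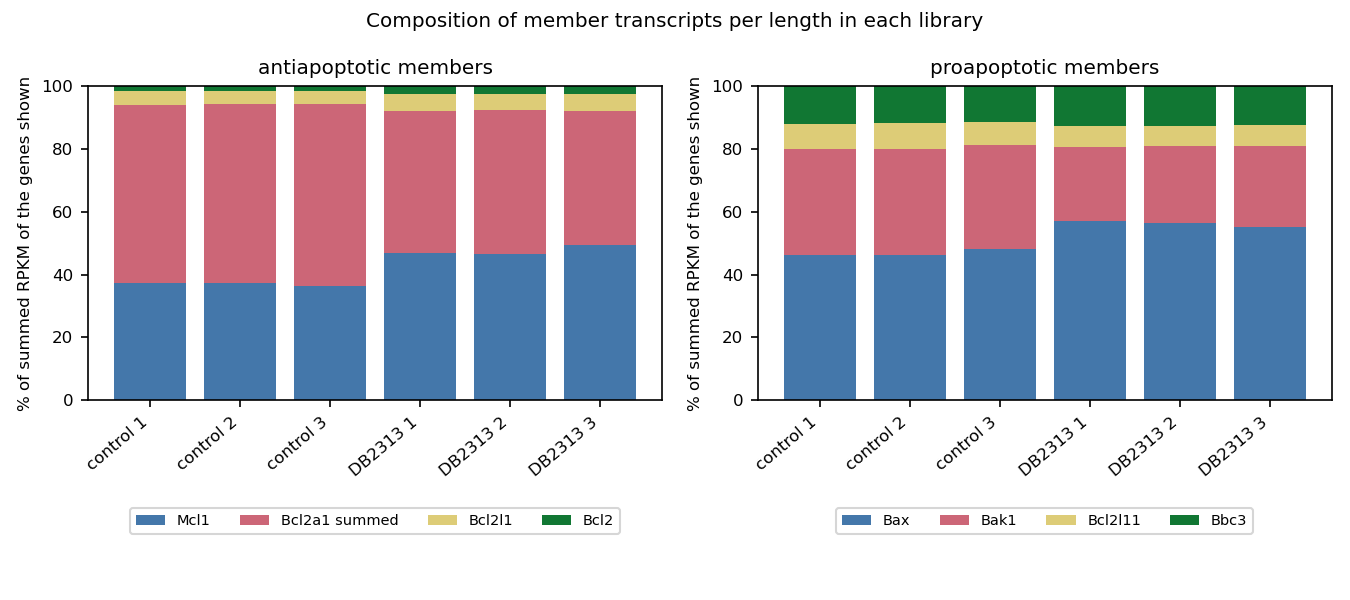
Share (vertical axis, % of the summed RPKM of the genes shown) of each antiapoptotic member (left) and proapoptotic member (right) in the 6 libraries. Bcl2a1, summed over 3 copies, is the largest antiapoptotic share in the control libraries and Mcl1 in the DB2313 libraries.

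The balance between antiapoptotic and proapoptotic transcripts was also taken as the log2 ratio of counts within each library, for 4 antiapoptotic genes over Bcl2l11 and over Bax, which gave 8 ratios. With 3 libraries against 3, the two-sided exact permutation test cannot go below p = 0.1, so no ratio could pass 0.05. The ratio of summed Bcl2a1 to Bax moved most. It was 1.26, 1.26 and 1.21 in the control libraries and 0.13, 0.088 and -0.014 in the DB2313 libraries, a difference of -1.17 on the log2 scale (exact permutation p = 0.1, 0.133 adjusted over the 8 ratios). Bcl2a1 counts exceeded Bax counts in every control library and were near them in every DB2313 library. These are counts and not levels per length, so the height of a ratio depends on gene length, and only its difference between groups does not. Per length, summed Bcl2a1 was at 219, 219 and 195 RPKM in the DB2313 libraries and Bax at 107, 111 and 106 RPKM.

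The ratios of Bcl2l1 and Mcl1 to Bax differed by -0.48 and -0.45 on the log2 scale, with no overlap between the groups (exact permutation p = 0.1 each). The ratio of Bcl2 to Bax differed by -0.12 and its groups overlapped (exact permutation p = 0.2). Without DB2313 replicate 2 this difference was -0.060. Over Bcl2l11 the picture differed by gene. The ratio of Bcl2 to Bcl2l11 was -0.24, -0.34 and -0.20 in the control libraries and 0.26, 0.090 and 0.13 with DB2313, a difference of 0.42, and that of Bcl2a1 to Bcl2l11 differed by -0.64 (exact permutation p = 0.1 each). The ratio of Mcl1 to Bcl2l11 differed by 0.087 (exact permutation p = 0.1), which was 0.045 without control replicate 2, and that of Bcl2l1 to Bcl2l11 by 0.058 with overlapping groups (exact permutation p = 0.5).

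**Figure D3:**
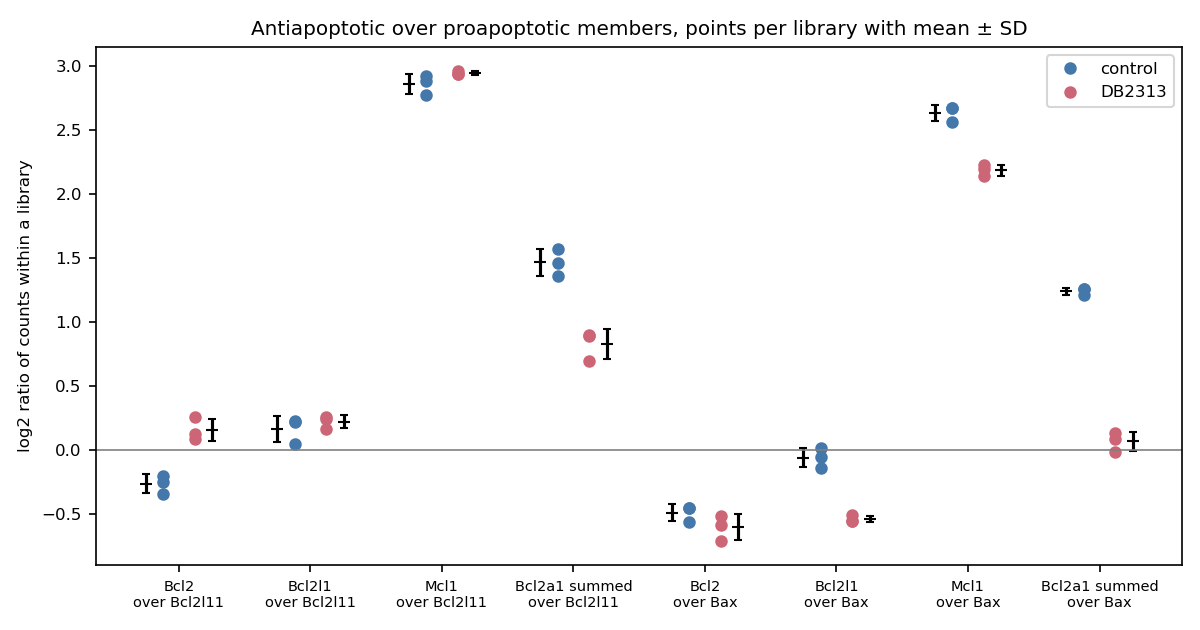
Log2 ratio of counts (vertical axis) of 4 antiapoptotic genes over Bcl2l11 and over Bax, with points for the 3 libraries of each group and bars for mean ± SD. The ratio of Bcl2a1 to Bax has a group mean of 1.24 in the control group and 0.069 with DB2313, the widest gap of the 8.

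Markers of T cells and of other cells moved with the groups. A list of 20 T cell genes took 0.377% to 0.383% of the counts of the control libraries and 0.608% to 0.613% of the DB2313 libraries, and all 20 were higher, by 0.32 to 0.74 on the log2 scale. A list of 20 macrophage genes took 1.46% to 1.49% and 0.674% to 0.694%, with 19 lower and 1 higher, and 11 of them fell by more than the summed Bcl2a1 genes. A list of 10 neutrophil genes took 0.193% to 0.194% and 0.0724% to 0.0743%, with 9 lower and 1 higher. Of 9 tested dendritic cell genes 7 were lower and 1 higher, and Siglech was at 0 in every library; of 7 B cell genes 4 were higher and 1 lower, and of 5 tested mast cell genes 3 were lower and 1 higher. In every library of both groups the macrophage list took a larger share of the counts than the T cell list. The lists hold different genes, so their shares do not give proportions of cells. The CPM and RPKM given here are of whole libraries, and cannot be read as levels in T cells alone. In bulk RNA, fewer cells of a type and less RNA per cell cannot be told apart. Bcl2a1 is expressed in myeloid cells as well as in activated T cells, and the part of the other cells in the differences of the members was not tested.

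The direction of the small differences depends on what the libraries are scaled to. Scaled to the summed counts of the 20 T cell genes, the median log2 fold change of all tested genes was -0.57, and all 10 members were lower, Bcl2 at -0.38, Bbc3 at -0.43, Bax at -0.27 and the summed Bcl2a1 at -1.44. Relative to that median, Bcl2 was at 0.18, Bbc3 at 0.14, Bax at 0.30 and the summed Bcl2a1 at -0.87. Over all tested genes, 3096 were higher and 3667 lower with TMM, 4931 and 2852 with library size scaling, 4319 and 3102 with upper quartile scaling, and 173 and 11508 when scaled to the T cell genes. With library size scaling 3 members were higher and 5 lower, and with upper quartile scaling 3 and 6. The 3 Bcl2a1 genes, Bcl2l11 and Bak1 were lower under each of the 4 scalings, and summed Bcl2a1 ranged from -1.44 to -0.76.

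**Figure D4:**
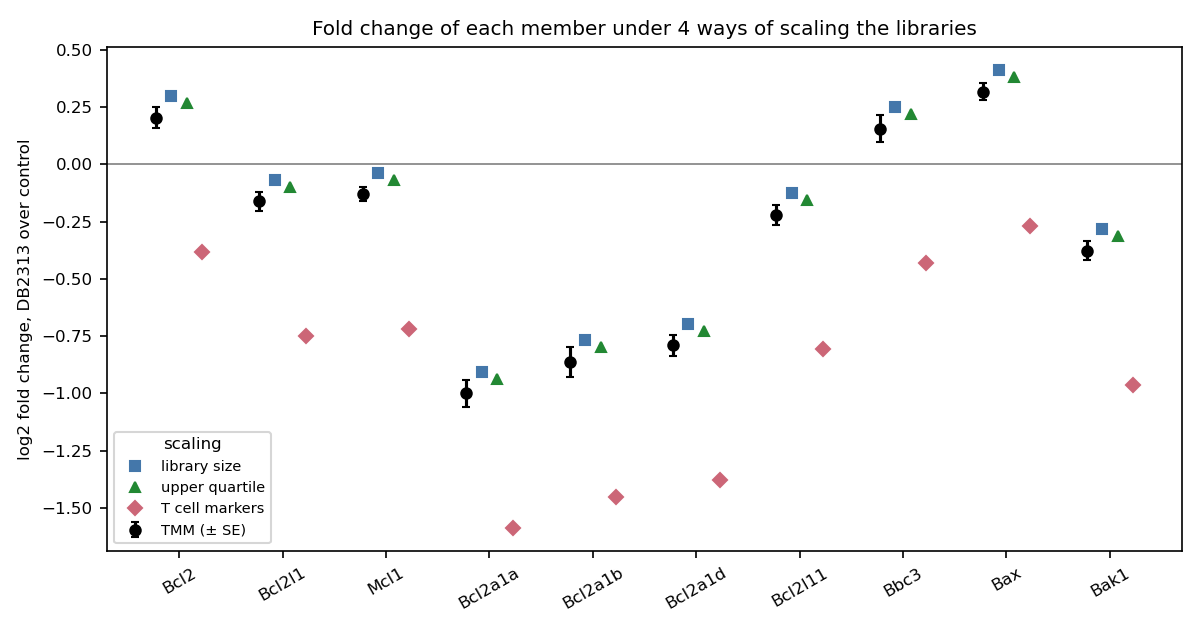
Log2 fold change (vertical axis, DB2313 over control) of each member with libraries scaled by TMM (black, ± SE), library size, upper quartile or T cell marker counts. Bcl2, Bbc3 and Bax lie above 0 under the first 3 scalings and below it when scaled to the T cell markers, while the Bcl2a1 genes are the lowest under all 4.

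Of 17 other genes of the Bcl2 family or with a related BH3 motif, 12 were tested, 4 were lower, 1 was higher and 7 did not pass, with a median log2 fold change of -0.046. Over all tested genes 24.6% were lower and 20.8% higher, and over the well-counted genes described above 35.3% and 28.0%, so the share of lower genes was near the background. The lower ones were BH3-only genes and the antiapoptotic Bcl2l2 (Bcl-w). Pmaip1, which encodes Noxa, an antagonist of Mcl1 and A1, went from 72.3 ± 2.30 to 46.0 ± 2.16 CPM (SD, n = 3 each), a log2 fold change of -0.65 (standard error 0.056, adjusted p = 1.03e-09). Bmf, a BH3-only gene linked to loss of adhesion and to cytokine withdrawal, went from 76.0 ± 0.681 to 52.2 ± 3.60 CPM, a log2 fold change of -0.54 (standard error 0.056, adjusted p = 2.20e-08). Bad, whose product survival kinases phosphorylate, was at -0.33 (standard error 0.074), Bcl2l2 at -0.29 (standard error 0.085), and the higher gene, Bcl2l12, at 0.28 (standard error 0.11, adjusted p = 0.0443) on the log2 scale. The call of Bcl2l12 was lost without control replicate 1, 2 or 3 or DB2313 replicate 2, with the replicate block and with DESeq2. Bid, the link from death receptors to the mitochondria, was at 58.2 ± 3.01 and 57.1 ± 2.66 CPM (SD, n = 3 each) and did not pass. Bcl2l10, Bcl2a1c, Bok, Hrk and Bcl2l15 did not pass the filter on low counts.

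Of 16 genes of the machinery that acts at and after the mitochondria, 10 were lower, 2 higher and 4 did not pass, with a median log2 fold change of -0.19, where 24.6% of all tested genes were lower and 20.8% higher, and 35.3% and 28.0% of the well-counted ones. The lower genes included Apaf1, which builds the apoptosome, at -0.31 (standard error 0.065), and the initiator Casp9 at -0.30 (standard error 0.063). The inhibitor of apoptosis genes were divided. Birc3 at -0.39 (standard error 0.041) and Xiap at -0.28 (standard error 0.062) were lower, and Birc2 at 0.12 (standard error 0.037) was higher. Cytochrome c (Cycs), Htra2, Vdac1 and Vdac2 were lower, at log2 fold changes of -0.33 to -0.15. The higher gene besides Birc2 was Endog, a mitochondrial nuclease, at 0.47 (standard error 0.14, adjusted p = 0.00614).

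Of 24 receptors, transcription factors and ubiquitin enzymes that are known to control members of the family, 7 were higher, 12 lower and 5 did not pass, with a median log2 fold change of -0.12. The background was again 20.8% higher and 24.6% lower over all tested genes, and 28.0% and 35.3% over the well-counted ones, and the share of higher genes was near the latter. The receptors that T cells use were divided. Cd28, which costimulates Bcl2l1 expression, rose from 98.9 ± 2.49 to 153 ± 5.67 CPM (SD, n = 3 each), a log2 fold change of 0.63 (standard error 0.041, adjusted p = 5.06e-12). Il7r and Il2rb, chains of the cytokine receptors that sustain Bcl2 and Mcl1, were higher by 0.55 (standard error 0.035) and 0.50 (standard error 0.034), and Il2rg by 0.14, while Il2ra was at -0.15 and Tnfrsf9 at -0.47. The rises of Cd28, Il7r and Il2rb lay within the range of the T cell list. Csf2rb and Csf2ra, chains of the GM-CSF receptor, had the largest falls of the list, at -1.29 (standard error 0.034) and -1.01 (standard error 0.044), and Csf2rb went from 1162 ± 39.9 to 475.4 ± 15.1 CPM (SD, n = 3 each). Csf2rb has a close paralog, Csf2rb2, with which it could share reads.
Among the transcription factors, the NF-kappa-B subunits Rel at -0.46 (standard error 0.044) and Nfkb1 at -0.28 (standard error 0.033) fell, and Rela was at -0.082 and did not pass. Foxo1 rose by 0.15 and Foxo3 fell by 0.19 on the log2 scale, and Stat5b rose by 0.19 where Stat5a fell by 0.21. Stat3 was at -0.092 and E2f1 at -0.30, both lower. Ddit3, a stress-induced factor that can raise Bcl2l11 and Bbc3, rose by 0.46 (standard error 0.065, adjusted p = 2.72e-06). Trp53, the activator of Bbc3 and Bax, was at 143 ± 5.77 and 134 ± 5.47 CPM (SD, n = 3 each) and did not pass (log2 fold change -0.090, adjusted p = 0.0820), and Mdm2, its ubiquitin ligase, fell by 0.21. Of the enzymes that control Mcl1 protein, the deubiquitinase Usp9x fell by 0.17, and the ligases Huwe1 (log2 fold change -0.11) and Fbxw7 (0.18) did not pass.

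**Figure D5:**
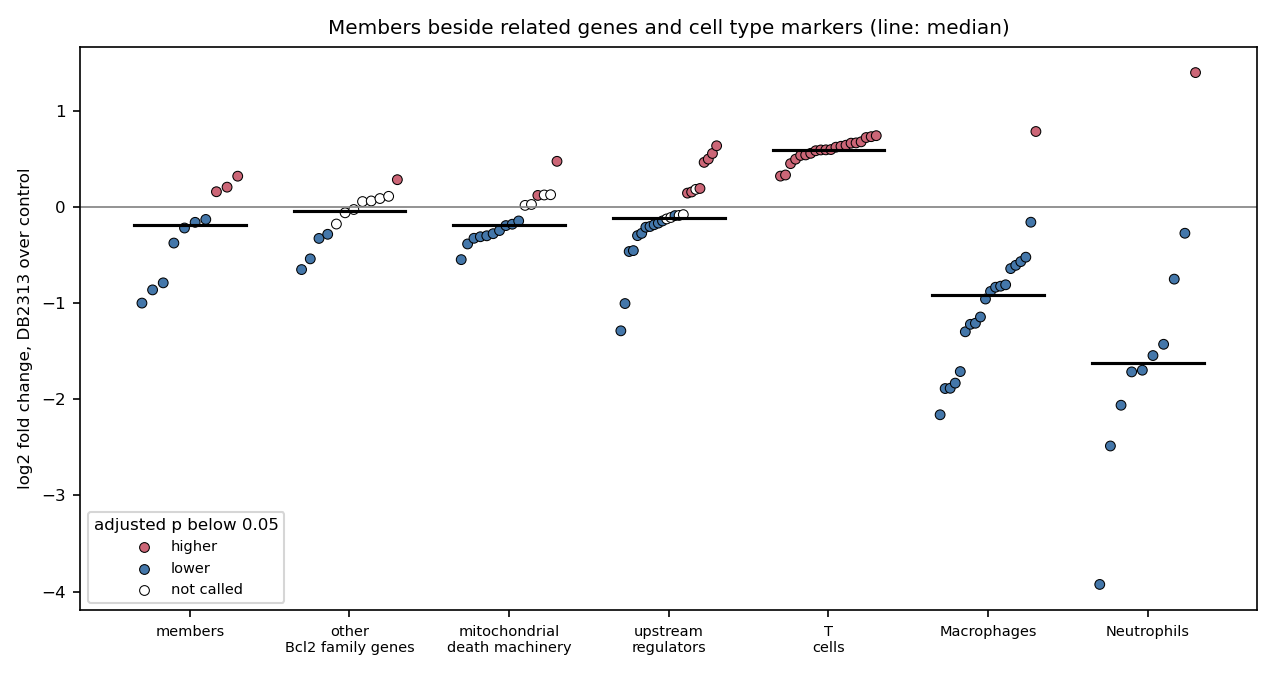
Log2 fold change (vertical axis, DB2313 over control) of the tested genes of each list shown, with a line at the median. Points are coloured by direction where the adjusted p was below 0.05 and white otherwise. The dendritic cell, B cell and mast cell lists are not shown. The 3 lowest members are the Bcl2a1 genes. The macrophage list runs from -2.16 to 0.78 with a median of -0.92, and only 1 of its 20 genes is higher. All 10 members lie within that range, but Bcl2, Bbc3 and Bax, which rose, do so only through that gene. All 10 members lie below the range of the T cell list, whose median is 0.59, Bax only just.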

How the data were processed

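The deposited values are raw read counts per gene, with a separate column for each sample. Whether material was pooled before sequencing is not said in the sources used here. The paper's methods name LifeScope for alignment and counting, and the submitters' processing notes name CASAVA 1.8, HISAT2 2.0.5 and featureCounts 1.5.0-p3, and the files do not settle which was used. Strandedness and build are not given in the sources used here. Of the 54409 gene identifiers shared with GENCODE mouse release 21, 98.3% have its GRCm38 coordinates, as have all 10 members. A gene listed at 0 may have a true level of up to 3 counts (1.81e-05% of the smallest library), for counting error only.
Counts were tested with edgeR 4.0.16 in R 4.3.3 (filterByExpr, TMM, glmQLFit, glmQLFTest, Benjamini-Hochberg adjustment over all tested genes, threshold 0.05). The standard error is the fitted change divided by the root of F. Ratios used counts plus 0.5. The step was tested on simulated counts. Libraries of a group differed beyond sampling noise. The chi-square per gene was 2.54 to 4.00 within the groups and 51.8 to 56.0 between them. The members and lists were chosen with earlier results of these data known. The genes named are the members and, of the other lists, those called, the largest changes and those that overlap a member; Bid, Rela, Trp53, Huwe1 and Fbxw7, and the genes below the filter, were named after their values were seen. The alternatives were DESeq2 1.42.0, other scalings and filters, a replicate block, leaving out each library, protein-coding genes only, and an added threshold of 1 on the absolute log2 fold change. The gene length of the table, a deposited value of another kind, served for RPKM. Some genes of the mitochondrial list are counted in it but not reported singly here.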

Additional observations from a re-analysis of the deposited data

How the results depend on the processing

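Over 14 alternative fits, 129 of 140 comparisons of single members kept direction and call, 8 lost the call (Bcl2l1 and Mcl1 under other scalings, Bbc3 as given above) and 3 reversed. The reversals were Bcl2 (-0.38), Bax (-0.27) and Bbc3 (-0.43) when scaled to the T cell markers. Under that scaling 0 members were higher and 10 lower, 0 and 11 of the other family genes, 0 genes of the mitochondrial machinery were higher, and 0 and 21 of the regulators. With an absolute log2 fold change above 1 as well, 0 members were higher and 1 lower, and of the regulators 0 and 2; the other lists had 0 in both directions. Other family genes numbered 4 higher with library size and with upper quartile scaling, and 0 with DESeq2, since Bcl2l12 was lost; the cause was not tested. The machinery had 4 higher genes with library size scaling.
In the 6 fits that each left out 1 library, members ranged from 2 to 3 higher and stayed at 7 lower, other family genes from 0 to 1 higher and 3 to 4 lower, the machinery from 1 to 3 higher and 8 to 10 lower, and the regulators from 7 to 8 higher and 10 to 15 lower. The other family genes had 0 higher without replicate 1 or 3 of the control group or replicate 2 of the DB2313 group, and without replicate 2 of the control group 1, which was Bcl2l13 (adjusted p = 0.0232 in edgeR) in place of Bcl2l12 (0.0997). The machinery had 1 higher gene without DB2313 replicate 2. The summed Bcl2a1 genes ranged from -0.88 to -0.80. The difference in the ratio of Bcl2l1 to Bcl2l11 ranged from -0.00016 to 0.089, and reversed, at -0.00016, without control replicate 2. That of Mcl1 to Bcl2l11 ranged from 0.045 to 0.12, and that of Bcl2 to Bax from -0.16 to -0.060.
Replicate numbers did not pair the samples, with correlations of deviations of 0.014, -0.0039 and 0.019 for same-numbered libraries, and not every library correlated best with its own number. With the replicate block, all 10 members kept their calls, and 0 other family genes were higher in place of 1. The lowest count of a member in a library was 541, for Bcl2a1b, and at such depth the sampling of reads is part of the spread between libraries.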
